A study of Mus musculus with 9 samples.

Results

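The ribosomal protein pseudogenes of mouse embryonic stem cells were taken as the genes of the deposited tables whose name begins with Rpl, Rps or Rplp and a number and ends in -ps, with or without a number. Of 33233 genes, 182 had such a name, and the 146 with at least 90 counts summed over the 9 libraries were kept. The members were thus chosen by their names and selected on the summed count alone. Of the 36 left out, 2 had 0 counts. Their presence and level therefore are descriptions and were not tested. Just inside the minimum were Rpl31-ps22 with 110 counts and Rps19-ps14 with 99, and just outside it Rpl26-ps5 with 83 and Rps13-ps6 with 74. All 146 passed the filter on low counts that preceded the tests.

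KH2 embryonic stem cells had been cultured on a feeder layer in medium containing Lif, and the feeders were depleted before RNA extraction. The 3 groups were wild type, CBFA2T2 knockout and PRDM14 knockout cells of that line, with 3 libraries each. CBFA2T2 is a co-repressor and PRDM14 a zinc-finger regulator of pluripotent and germ cells, and the libraries address how the loss of either changes RNA. The labels call the libraries biological replicates and do not say whether they came from separate clones or cultures, so the p-values measure only the spread between these samples. Polyadenylated RNA was made into strand-specific libraries by the dUTP method.

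A processed pseudogene arises when a messenger RNA is copied back into DNA and inserted elsewhere in the genome. The copy lacks introns and usually the promoter of its parent gene, and mammalian genomes hold many such copies of ribosomal protein genes, whose messengers are abundant in most cells. Because a recent copy is close to identical to its parent, a short sequencing read from the parent messenger can match the pseudogene as well, and a read that crosses a parent exon junction matches the pseudogene in one unbroken stretch where the parent gene needs a spliced alignment.

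The following sequences show that last point for 3 families whose members are described in the results. Each is 60 bases of the sense strand, 5′ to 3′, around one exon junction of the parent (GRCm38 coordinates, sequences and strands from GENCODE M21). In a parent the capitals are the last base of one exon and the first of the next. In a pseudogene the capitals are the bases that differ from the parent, and positions are counted from 1 at the 5′ end of the window.
Rps6, exons 3 and 4, chr4:86856146-86856175 and chr4:86855984-86856013, minus strand: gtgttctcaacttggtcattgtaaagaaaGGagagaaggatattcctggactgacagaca
Rps6-ps4, chr2:75191444-75191503, minus strand: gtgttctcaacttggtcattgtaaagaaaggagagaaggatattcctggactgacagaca
Rps6-ps3, chr9:53689905-53689964, minus strand: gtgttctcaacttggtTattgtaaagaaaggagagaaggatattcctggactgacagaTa
Rps6-ps1, chr15:76337935-76337994, plus strand: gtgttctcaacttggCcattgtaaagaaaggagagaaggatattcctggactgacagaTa
Rps6-ps2, chr8:88806710-88806769, plus strand: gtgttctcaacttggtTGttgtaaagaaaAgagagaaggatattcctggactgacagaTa
Rps15a, exons 2 and 3, chr7:118115109-118115138 and chr7:118114835-118114864, minus strand: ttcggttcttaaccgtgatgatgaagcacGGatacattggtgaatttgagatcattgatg
Rps15a-ps7, chr2:152185521-152185580, minus strand: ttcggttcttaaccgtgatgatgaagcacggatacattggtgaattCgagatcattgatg
Rps15a-ps2, chr19:28742389-28742448, minus strand: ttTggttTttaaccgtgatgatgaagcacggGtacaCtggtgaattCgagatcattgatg
Rps15a-ps3, chr4:150847218-150847277, plus strand: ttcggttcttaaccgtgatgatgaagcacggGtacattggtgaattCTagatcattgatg
Rpl10a, exons 4 and 5, chr17:28329493-28329522 and chr17:28330525-28330554, plus strand: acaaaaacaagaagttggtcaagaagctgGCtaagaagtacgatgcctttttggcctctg
Rpl10a-ps1, chr1:64994265-64994324, minus strand: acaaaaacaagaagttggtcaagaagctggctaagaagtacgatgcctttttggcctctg
Rpl10a-ps2, chr13:8940647-8940706, minus strand: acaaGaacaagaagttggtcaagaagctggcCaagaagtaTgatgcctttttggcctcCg

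Every pseudogene window carried the joined exons without a gap. Rps6-ps4 and Rpl10a-ps1 had the parent's letters throughout, Rps6-ps3 differed by C17T and C59T, Rps6-ps1 by T16C and C59T, and Rps6-ps2 by C17T, A18G, G30A and C59T. Rps15a-ps7 differed by T47C alone. Of the 145 members with a transcript in that annotation, all 145 had a single exon, and 143 spanned at least 1 junction of the parent (median 4, highest 9). Over the 144 that aligned to the parent for at least 100 bases, the median identity was 97.9% and the lowest 80.1% (Rps19-ps14). Identity here is the matching bases as a percent of aligned and gap bases together. There were 12 members identical to the parent over the aligned length, 45 with at least 99% identity and 44 under 95%. Of the 125 in which the parent's start codon was aligned, 78 kept a reading frame as long as the parent protein, 44 had a shorter one and 3 a longer one. Annotation classed 136 as processed pseudogenes, 4 as transcribed processed pseudogenes and 5 as protein-coding genes, and 1 was not in it.

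Cut into windows of 50 bases, the median member had 52.1% of its windows in no other annotated transcript, and 20 members had none of their own. In all, 106 members, some of those 20 among them, had windows shared with the parent only across an exon junction, and over the members with a transcript the median share of such windows was 13.4%. How reads matching several genes were counted is not stated in the labels, so for members with few windows of their own the counts of pseudogene and parent cannot be told apart. Among coding sequences, Rpl36a-ps3 matched Rpl36al better than the gene it is named for. The 146 members lay on 20 chromosomes, 17 of them on X and 7 on the parent's chromosome, and 46 overlapped another gene of the files, 12 of those on the same strand.

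Library totals lay between 10309196 and 20129490 counts, and the members held 0.932% to 1.37% of them, against 1.06% to 1.51% for their 55 parent genes. Cbfa2t2 had 166, 160 and 177 CPM (counts per 1000000 of the scaled library) in wild type against 99.2, 44.9 and 84.8 CPM in CBFA2T2 knockout (-1.14 ± 0.25 log2, SE, n = 3 per group, adjusted p = 0.00753 by edgeR). Prdm14 was at 41.4, 42.2 and 63.5 CPM in the libraries labelled PRDM14 knockout and at 18.4, 14.6 and 15.0 CPM in wild type, so its RNA was higher under that label (1.61 ± 0.17 log2, adjusted p = 3.46e-05 by edgeR). Whether the counts include a deleted part is not given. Each of the 8 stem cell markers was detected in every library, with a summed level of 4500 to 4551 CPM in wild type, 2530 to 3113 CPM in CBFA2T2 knockout and 3299 to 4074 CPM in the libraries labelled PRDM14 knockout. The 12 fibroblast markers of feeder cells summed to 260 to 337, 664 to 1534 and 571 to 1327 CPM in the same order, with Lum at or near 0 in every library. Of 11 tested, 5 rose in CBFA2T2 knockout (45.5%) and 4 under the PRDM14 label (36.4%), against 18.9% and 14.6% of all genes tested. Replicate 2 of both knockouts had the most fibroblast marker RNA. The part of these differences in the results below was not tested, and in bulk RNA fewer cells of a type and less RNA per cell cannot be told apart.

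The pseudogenes drew nearly as many counts as the genes they were copied from. Their 1652877 counts over the 9 libraries were spread unevenly, with a median of 3356.5 per member, 46 members at 10000 counts or more, 45 under 1000, and 42.2% of all member counts in the 10 most counted. Summed over the members, a library held 9697 to 13659 CPM, which was 87.7% to 95.4% of the counts of the 55 parents. By counts alone, 31 of the 146 members had more than the parent. Per kb of exon, 74 of the 145 members with a length had a higher level than the parent, with a median ratio of 1.18 and a highest ratio of 55.4 (Rps23-ps2). The parent length here merges the exons of all its annotated transcripts. For Rps15a that is 6270 bases against 640 in the transcript Rps15a-201, and a longer length lowers the parent's level per kb.

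The most counted member was Rpl10a-ps1, a copy of the gene for a large-subunit protein of the ribosome's L1 stalk. It was at 853, 789 and 751 CPM in wild type, 1001, 911 and 966 CPM in CBFA2T2 knockout and 948, 912 and 1065 CPM in the libraries labelled PRDM14 knockout. Rpl10a itself was at 169, 180 and 183, at 138, 156 and 167, and at 181, 192 and 253 CPM. The pseudogene was therefore above its parent in all 9 libraries, and per kb the means were 1393 and 74.0 CPM. Rpl10a-ps1 has no 50-base window of its own, and 31.7% of its windows match the parent only across a junction.

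The same order held for other highly counted members. Per kb, Rpl28-ps3 was at 1406 CPM and Rpl28 at 69.5, Rps16-ps2 at 1286 and Rps16 at 45.8, Rpl31-ps8 at 832 and Rpl31 at 15.3, and Rps23-ps2 at 498 and Rps23 at 8.99 CPM. The parents code for proteins of both ribosomal subunits, Rps16 and Rps23 of the small one and Rpl28 and Rpl31 of the large one.

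**Figure D1:**
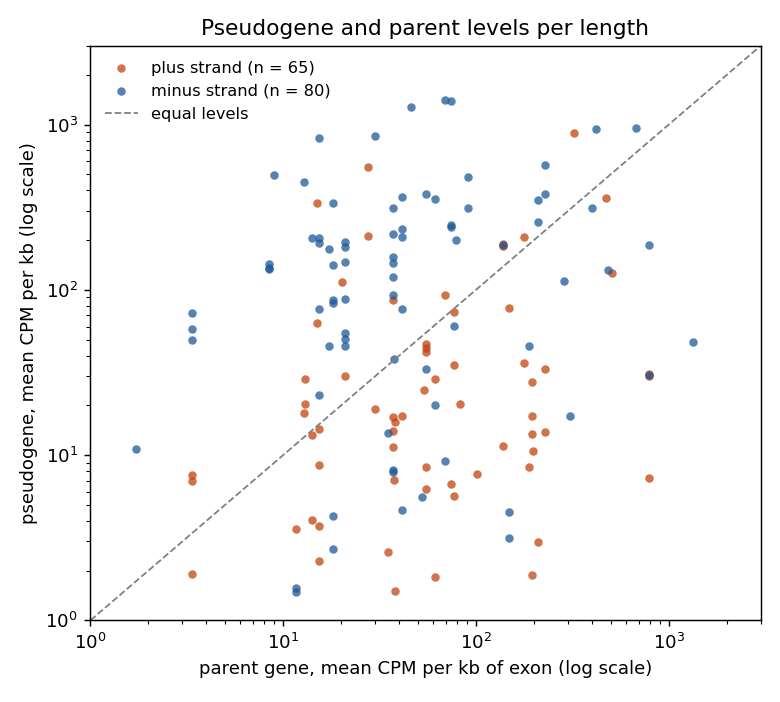
Mean CPM per kb over the 9 libraries of each pseudogene (y axis, log scale) against its parent gene (x axis, log scale), 1 point per pseudogene, coloured by annotated strand, with a dashed line at equal levels. In all, 74 of 145 points lie above the line, and most of those are on the minus strand.

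Level followed identity to the parent only loosely. The median level was 135 CPM per kb in the 45 members with at least 99% identity (range 2.58 to 1406), 73.4 in the 55 between 95% and 99%, and 17.7 in the 44 under 95%. Across the 144 members Spearman's rho was 0.451 between identity and CPM per kb, and 0.404 between the share of junction windows and CPM per kb, as descriptions of members that share libraries and base composition.

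The members also differed in level by annotated strand. This split was made after the values were seen and carries no test. On the plus strand of the chromosome, 64 aligned members had a median of 17.3 CPM per kb (highest 891), and on the minus strand 80 had a median of 138 (highest 1406). Their parents' medians were 55.0 beside the plus-strand members and 37.2 beside the minus-strand ones, and the member was above its parent in 16 of 64 and in 57 of 80 pairs. Median identity was 98.1% and 97.3%, and the median share of windows of their own 49.4% and 54.4%. The gap was present in each identity class, with medians of 26.1 and 312 CPM per kb at 99% or more, 19.6 and 183 between 95% and 99%, and 7.501 and 35.6 under 95%.

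The strand of the parent made little difference to it. Plus-strand members had a median of 15.9 CPM per kb with a plus-strand parent and 17.3 with a minus-strand parent, and minus-strand members 134 and 148. Of the 10 most counted members 9 were on the minus strand, Rpl14-ps1 being the exception, and of the 45 members under 1000 counts 32 were on the plus strand. In 22 families with members on both strands, which hold 90 members, the median per kb was higher on the minus strand in 20, and lower in those of Rpl7a and Rps10. In the Rps6 family, whose parent encodes a small-subunit protein phosphorylated by the S6 kinases, the minus-strand copies Rps6-ps4 and Rps6-ps3 were at 568 and 378 CPM per kb and the plus-strand copies Rps6-ps1 and Rps6-ps2 at 33.4 and 13.8, with 98.1% and 96.0% identity for the latter pair.

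The summed level also differed by strand in the other 3859 genes annotated as processed pseudogenes, and far less in protein-coding genes. These 3859 were not screened by name and can include ribosomal protein copies under other names or below the count minimum. The 1909 other processed pseudogenes on the plus strand summed to 13634 to 18337 CPM per library and the 1950 on the minus strand to 55943 to 63629. Protein-coding genes summed to 408532 to 446659 CPM on the plus strand and 456014 to 495287 on the minus strand. The strand setting of the counting is unknown here, and the cause of the difference was not tested.

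In CBFA2T2 knockout against wild type, 27 of the 146 pseudogenes rose and 12 fell (edgeR quasi-likelihood test, Benjamini-Hochberg adjusted p under 0.05 over 16532 genes). Of all genes tested, 18.9% were called higher and 19.6% lower, so the 18.5% of members that rose was close to the background and the 8.22% that fell was below it. The members' median log2 fold change was 0.09, beside 0.01 over all genes, and 84 were above 0. That median was 0.06 without CBFA2T2 knockout replicate 1 or without wild-type replicate 3 and 0.15 without CBFA2T2 knockout replicate 2. The libraries decide part of the count: 21 members were called without CBFA2T2 knockout replicate 1 and 17 without wild-type replicate 3, against 39 with all. By subunit, 13 small-subunit members rose and 6 fell of 55, and 14 large-subunit members rose and 6 fell of 91.

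The 2 strands differed in the sign of their medians. Of 80 minus-strand members, 26 rose (32.5%) and 3 fell (3.75%), with a median log2 fold change of 0.26 and 67 above 0. Of 65 plus-strand members, 1 rose (1.54%) and 9 fell (13.8%), with a median of -0.35 and 49 below 0. Of all genes 18.9% were called higher and 19.6% lower, so only the minus-strand rises were above the background. The plus-strand median was -0.20 without CBFA2T2 knockout replicate 2 and -0.50 without replicate 3 of that group, the ends of its range over the alternatives tried. Summed over members, the plus strand held 2574, 2255 and 2199 CPM in wild type and 2436, 2213 and 2473 CPM in CBFA2T2 knockout, which overlap, and the minus strand 8393, 8025 and 7412 CPM in wild type and 10019, 8796 and 9051 in CBFA2T2 knockout, which do not. As a share of member CPM the plus strand took 21.8% to 23.3% in wild type and 19.4% to 21.3% in CBFA2T2 knockout.

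The Rps15a family held the most minus-strand members that rose. Rps15a, which encodes a small-subunit protein, has 8 kept copies, 7 of them on the minus strand. Rps15a-ps7 was at 64.4, 61.8 and 52.5 CPM in wild type and 98.4, 90.9 and 78.0 CPM in CBFA2T2 knockout. Its groups did not overlap, and its log2 fold change was 0.58 ± 0.11 (SE, n = 3 per group, adjusted p = 0.000952 by edgeR). Rps15a-ps5 went from 64.7, 57.3 and 54.9 CPM to 90.5, 80.4 and 78.2 CPM (0.49 ± 0.09 log2, adjusted p = 0.00105 by edgeR).

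Of the 8 copies of Rps15a, 6 rose and none fell in CBFA2T2 knockout, and the parent rose by 0.50 ± 0.11 log2 (adjusted p = 0.0038 by edgeR), from 114, 106 and 96.8 CPM to 173, 135 and 142 CPM. Rps15a-ps2 had the highest log2 fold change of the family, 0.82 ± 0.17 (adjusted p = 0.00207 by edgeR), with 86.0% of its windows its own. Rps15a-ps3, the plus-strand copy, was at 11.99, 8.19 and 11.1 CPM in wild type and 9.89, 6.62 and 9.39 CPM in CBFA2T2 knockout, with overlapping groups and a log2 fold change of -0.29 ± 0.24 (adjusted p = 0.367 by edgeR).

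**Figure D2:**
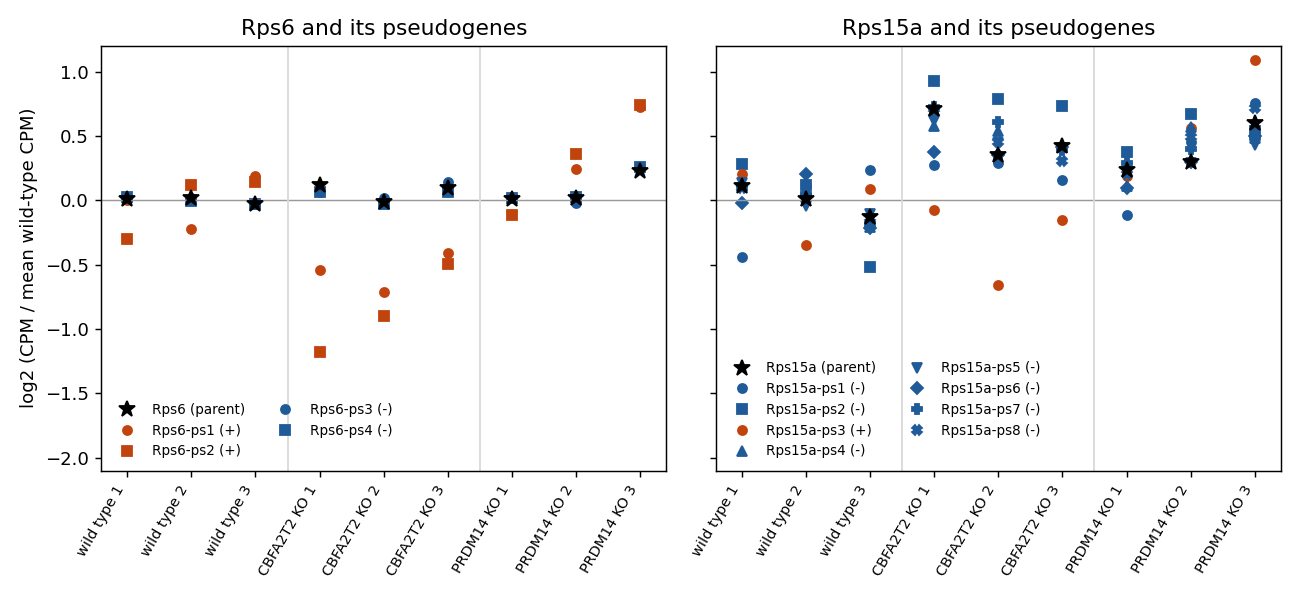
Level of each gene in each of the 9 libraries as log2 of its CPM over its mean wild-type CPM (y axis), for Rps6 (left) and Rps15a (right); black stars are parents, orange points plus-strand pseudogenes and blue points minus-strand pseudogenes. In CBFA2T2 knockout the plus-strand copies of Rps6 lie below 0 while Rps6, Rps6-ps3 and Rps6-ps4 stay near 0, and in the Rps15a family the plus-strand copy lies below the other copies.

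Other minus-strand members that rose had parents that were called, or were not. Rpl22-ps1, a copy of the gene for a large-subunit protein that also binds other RNAs, went from 67.7, 58.1 and 54.2 CPM in wild type to 110, 84.5 and 78.1 CPM in CBFA2T2 knockout (0.60 ± 0.12 log2, adjusted p = 0.00192 by edgeR), and Rpl22 rose by 0.48 ± 0.08 log2 (adjusted p = 0.000504 by edgeR). Rpl12-ps1 went from 79.96, 74.8 and 59.9 CPM to 113, 97.0 and 94.8 CPM (0.51 ± 0.11 log2, adjusted p = 0.0026 by edgeR). Rpl12, a gene for a protein of the ribosomal stalk base, was not called, at -0.28 ± 0.13 log2 (adjusted p = 0.0968 by edgeR). Neither of these pseudogenes overlapped between the groups.

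Rps19-ps7, a copy of the small-subunit gene whose human counterpart is mutated in Diamond-Blackfan anaemia, went from 124, 129 and 106 CPM to 172, 158 and 157 CPM (0.44 ± 0.10 log2, adjusted p = 0.00278 by edgeR). The calls of Rps15a-ps7, Rps15a-ps5, Rps15a-ps2, Rpl22-ps1, Rpl12-ps1 and Rps19-ps7 in CBFA2T2 knockout were kept under every alternative tried, including each library left out. Rpl10a-ps1 rose by 0.27 ± 0.08 log2 (adjusted p = 0.0153 by edgeR), with groups that did not overlap, but missed the threshold without wild-type replicate 2 (adjusted p = 0.0508) and without wild-type replicate 3 (adjusted p = 0.0629).

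Among the plus-strand members that fell, Rpl27-ps3 was at 8.11, 6.20 and 6.77 CPM in wild type and 3.22, 3.93 and 3.96 CPM in CBFA2T2 knockout. All 3 knockout libraries were below all 3 wild-type ones, with a log2 fold change of -0.93 ± 0.22 (adjusted p = 0.00395 by edgeR), a call kept under every alternative. Its parent Rpl27, a large-subunit gene, fell by 0.56 ± 0.16 log2 (adjusted p = 0.0111 by edgeR, and 0.0502 without wild-type replicate 1). Rpl27-ps3 is identical to Rpl27 over the aligned length and has no 50-base window of its own.

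The plus-strand copies of Rps6 fell while the parent and the minus-strand copies were not called. Rps6-ps1 was at 25.4, 21.7 and 28.9 CPM in wild type and 17.5, 15.5 and 19.1 CPM in CBFA2T2 knockout, without overlap (-0.56 ± 0.17 log2, adjusted p = 0.0227 by edgeR). Rps6-ps2 was at 8.80, 11.8 and 11.9 CPM and at 4.80, 5.80 and 7.68 CPM, also without overlap (-0.84 ± 0.24 log2, adjusted p = 0.0139 by edgeR). The values beside them were 0.03 ± 0.08 for Rps6-ps4, 0.07 ± 0.08 for Rps6-ps3 and 0.07 ± 0.08 log2 for Rps6, none of them called.

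Both plus-strand calls in the Rps6 family rested on single libraries. For Rps6-ps1 the edgeR adjusted p was 0.0638 when CBFA2T2 knockout replicate 1 was left out, 0.0954 when replicate 2 of that group was, 0.0566 when wild-type replicate 1 was and 0.11 when wild-type replicate 3 was. For Rps6-ps2 the same p was 0.0647 or 0.0511 when CBFA2T2 knockout replicate 1 or 2 was left out and 0.0544 or 0.0616 when wild-type replicate 2 or 3 was. The directions were the same each time.

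A few members went against their strand. On the minus strand Rps4l-ps, named for Rps4l (a paralog of the small-subunit gene Rps4x), fell from 104, 123 and 111 CPM in wild type to 74.6, 62.1 and 69.9 CPM in CBFA2T2 knockout, without overlap (-0.71 ± 0.16 log2, adjusted p = 0.00409 by edgeR). Rps4l fell by 0.78 ± 0.13 log2 beside it (adjusted p = 0.000824 by edgeR). Rpl7a-ps5 fell from 0.914, 1.90 and 1.59 CPM to 0.396, 0.240 and 0.543 CPM (-1.90 ± 0.63 log2, adjusted p = 0.0279 by edgeR), a low level at which the call was lost without CBFA2T2 knockout replicate 1 (adjusted p = 0.0703) or 2 (0.108), without wild-type replicate 2 (0.0923) or 3 (0.0808), and with limma-voom (0.0671). The plus-strand member that rose was Rps12-ps9, from 16.4, 14.3 and 16.0 CPM to 21.3, 17.9 and 20.7 CPM (0.35 ± 0.13 log2, adjusted p = 0.0491 by edgeR). That call was lost when either CBFA2T2 knockout replicate 1 or 3 or any wild-type library was left out, with adjusted p from 0.0697 to 0.144, and with limma-voom (0.0756) and no filter (0.0646).

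Each pseudogene was set beside its parent. Of the 27 pseudogenes that rose in CBFA2T2 knockout, 15 had a parent that rose and 12 a parent that was not called. Of the 12 that fell, 2 had a parent that fell, 9 a parent that was not called and 1, Rpl36a-ps3, a parent that rose. Among the 55 parents 12 rose and 3 fell, with a median log2 fold change of 0.12. That is 21.8% and 5.45%, against 18.9% and 19.6% of all genes, so the share that rose was close to the background. By strand the parents' medians were -0.10 for 30 on the plus strand (3 rose, 2 fell) and 0.18 for 25 on the minus strand (9 rose, 1 fell). Without CBFA2T2 knockout replicate 1, or without wild-type replicate 3, 9 parents were called in place of 15.

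**Figure D3:**
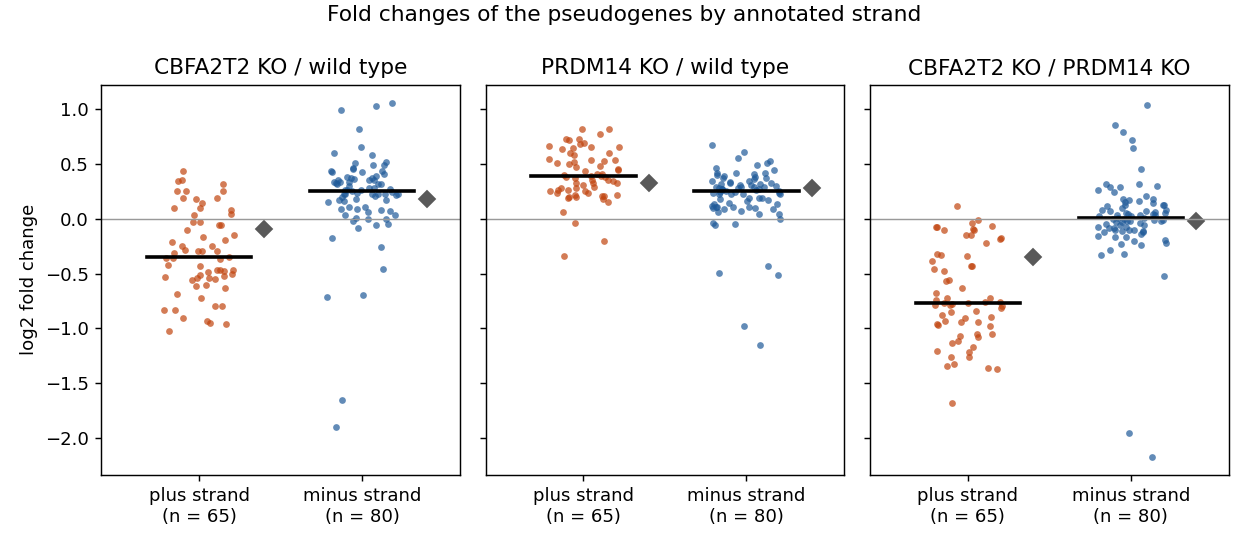
Log2 fold change of each pseudogene (points) in the 3 comparisons, split by annotated strand, with the members' median as a black bar and the median of parents on that strand as a grey diamond. In CBFA2T2 knockout against wild type the medians are -0.35 on the plus and 0.26 on the minus strand, in the libraries labelled PRDM14 knockout 0.39 and 0.25, and between the knockouts -0.77 and 0.01.

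In the libraries labelled PRDM14 knockout against wild type, 31 of 146 pseudogenes rose and 1 fell (edgeR quasi-likelihood test, adjusted p under 0.05). Over all genes 14.6% were called higher and 15.3% lower, so that 21.2% of members rose and 0.685% fell against that background. Of the 40 members with over 80% of their windows in no other transcript, 5 rose (12.5%), which is below the background. Between 10% and 80% 17 of 76 rose (22.4%), and under 10% 9 of 29 (31.0%). The median log2 fold change of the members was 0.29, beside 0.02 over all genes, and 135 were above 0. The wild-type libraries are the same as in the CBFA2T2 comparison. Single libraries weighed heavily: 32 members were called with all libraries, 3 without wild-type replicate 3, 8 without replicate 3 of the libraries labelled PRDM14 knockout and 12 without wild-type replicate 2, while 54 were called without replicate 1 of the libraries labelled PRDM14 knockout.

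Here the medians of both strands were above 0. Of 80 minus-strand members 26 rose (32.5%) and 1 fell, with a median log2 fold change of 0.25. Of 65 plus-strand members 5 rose (7.69%) and none fell, with a median of 0.39. Of all genes 14.6% were called higher, so the plus-strand share that rose was below the background. The plus-strand members summed to 2622, 2775 and 3204 CPM against 2574, 2255 and 2199 in wild type, and the minus-strand members to 8711, 9075 and 10342 CPM against 8393, 8025 and 7412. Neither pair of groups overlapped, and replicate 3 was the highest of the libraries labelled PRDM14 knockout on both strands. Without it the plus-strand median was 0.21 and the members' median 0.19. The plus strand took 22.9% to 23.5% of member CPM, within or just above the wild-type range.

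**Figure D4:**
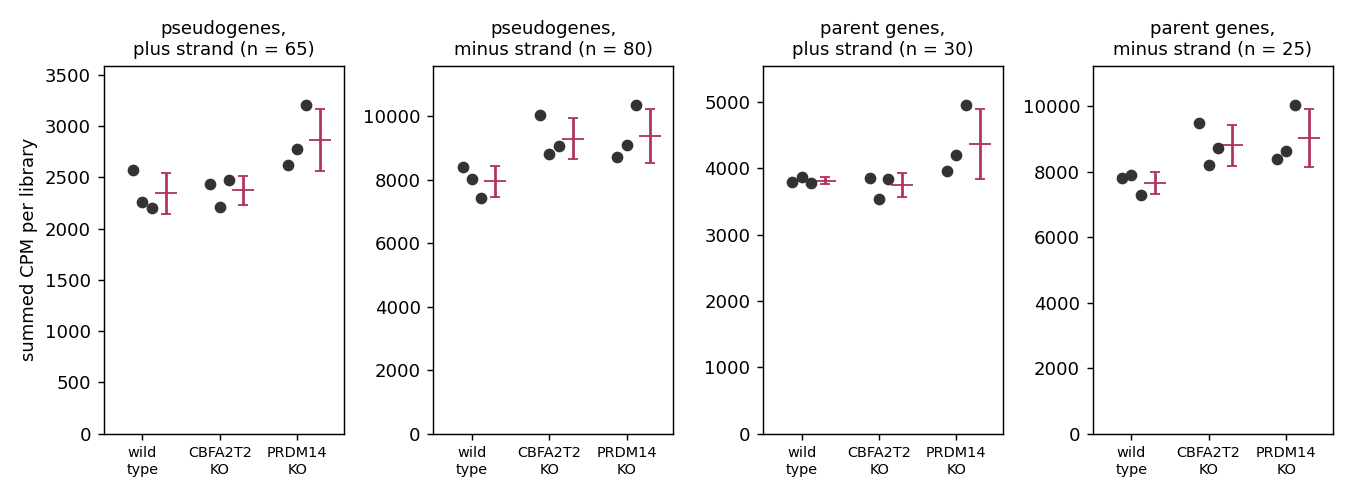
Summed CPM per library of pseudogenes on the plus and minus strand and of their parent genes on each strand (y axes, each from 0), 1 point per library in 3 groups, with mean and SD beside them. Plus-strand pseudogenes are at 2343 ± 202 CPM in wild type, 2374 ± 141 in CBFA2T2 knockout and 2867 ± 302 in the libraries labelled PRDM14 knockout, and minus-strand ones at 7943 ± 496, 9289 ± 646 and 9376 ± 856.

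The lowest adjusted p under this label was that of a plus-strand member. Rpl3-ps1, an X-linked copy of the gene for a large-subunit protein near the peptidyl transferase centre, was at 254, 213 and 196 CPM in wild type and 298, 310 and 330 CPM in the libraries labelled PRDM14 knockout. The groups did not overlap (0.50 ± 0.10 log2, adjusted p = 0.00254 by edgeR), and the call was kept under every alternative. CBFA2T2 knockout libraries were at 234, 200 and 250 CPM, within the wild-type range. Rpl3 itself was at 0.25 ± 0.09 log2 (adjusted p = 0.0469 by edgeR), a call lost without wild-type replicate 1 (adjusted p = 0.181) or 3 (0.1), without replicate 2 (0.0713) or 3 (0.14) of the libraries labelled PRDM14 knockout, and in a fit of the compared groups alone (0.0544).

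Rpl10a-ps2 rose by 0.34 ± 0.08 log2 (adjusted p = 0.00566 by edgeR), from 141, 134 and 130 CPM to 161, 162 and 189 CPM, and Rps19-ps7 by 0.39 ± 0.10 (adjusted p = 0.00785 by edgeR), from 124, 129 and 106 to 138, 160 and 172 CPM. Both calls were kept under every alternative. With 86.3% of its windows found in no other transcript, Rpl10a-ps2 is less open to reads of Rpl10a than Rpl10a-ps1, which rose by 0.29 ± 0.08 log2 (adjusted p = 0.0127 by edgeR, and 0.0597 without wild-type replicate 3). Rpl10a was at 0.24 ± 0.11 log2 and was not called (adjusted p = 0.14 by edgeR).

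In the Rps15a family 5 of 8 copies rose under this label and none fell. Rps15a-ps7 rose by 0.42 ± 0.11 log2 (adjusted p = 0.0103 by edgeR), to 72.8, 78.7 and 87.9 CPM, and Rps15a-ps8 by 0.49 ± 0.13 (adjusted p = 0.0136 by edgeR), from 48.1, 46.1 and 41.1 CPM to 52.0, 63.6 and 74.4 CPM. Their adjusted p without wild-type replicate 3 was 0.0568 and 0.0633. The plus-strand copy Rps15a-ps3, at 11.9, 15.4 and 22.3 CPM, was at 0.65 ± 0.24 log2 and not called (adjusted p = 0.0538 by edgeR). Rps15a rose by 0.39 ± 0.11 log2 (adjusted p = 0.0218 by edgeR), a call lost without wild-type replicate 2 (0.062) or 3 (0.0906) and without replicate 3 of the libraries labelled PRDM14 knockout (0.0736).

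The member that fell was Rps4l-ps, at 102, 63.2 and 70.3 CPM against 104, 123 and 111 CPM in wild type. Replicate 1 lay just below the wild-type range and replicates 2 and 3 well below it (-0.52 ± 0.15 log2, adjusted p = 0.0264 by edgeR). The call was lost without replicate 2 (adjusted p = 0.0787) or 3 (0.101) of the libraries labelled PRDM14 knockout and without wild-type replicate 2 (0.0977) or 3 (0.0714). Its parent Rps4l was at -0.41 ± 0.13 log2 (adjusted p = 0.0368 by edgeR), a call lost when any wild-type library, or replicate 2 or 3 of the libraries labelled PRDM14 knockout, was left out (adjusted p from 0.0873 to 0.133), in a fit of the compared groups alone (0.0585) and with no filter (0.0627).

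Of the 31 pseudogenes that rose, 18 had a parent that rose and 13 a parent that was not called. Of the 55 parents 19 rose and 3 fell, with a median log2 fold change of 0.32. That is 34.5% and 5.45%, against 14.6% and 15.3% of all genes. Their medians by strand were 0.33 on the plus and 0.28 on the minus strand. The number of parents called was 22 with all libraries, 5 without wild-type replicate 3, 13 without wild-type replicate 2 and 11 without replicate 3 of the libraries labelled PRDM14 knockout.

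Between the knockouts, the pseudogenes on the plus strand were lower in CBFA2T2 knockout than in the libraries labelled PRDM14 knockout. Of 146 members 9 were called lower and none higher (edgeR quasi-likelihood test, adjusted p under 0.05), which is 6.16% against 0.514% of all genes called lower and 0.339% called higher. All 9 were on the plus strand. None was among the 40 members with over 80% of their windows in no other transcript. Between 10% and 80% 7 of 76 were called lower, and under 10% 2 of 29. The median log2 differences of these 3 classes were -0.09, -0.21 and -0.09. At an unadjusted p under 0.05, 47 members were lower and 3 higher, and by strand 43 lower and 0 higher of 65 on the plus strand against 4 lower and 3 higher of 80 on the minus strand.

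The median log2 difference, CBFA2T2 knockout over PRDM14 label, was -0.77 on the plus strand, where 64 of 65 members were below 0, and 0.01 on the minus strand, where 39 of 80 were below 0. Over the alternatives tried the plus-strand median ranged from -0.92 to -0.56, the latter without replicate 3 of the libraries labelled PRDM14 knockout, and the minus-strand median from -0.05 to 0.08. In 19 of the 22 families with members on both strands the plus-strand median was the lower one. Parents showed a difference of the same sign and smaller size, with medians of -0.35 for 30 on the plus strand and -0.02 for 25 on the minus strand, and 0 of 55 called (19 at an unadjusted p under 0.05; limma-voom called 1 and the DESeq2 Wald test 8).

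The 9 calls depended on the libraries in the fit. None of the 9 was left without CBFA2T2 knockout replicate 1, without CBFA2T2 knockout replicate 2, without replicate 3 of the libraries labelled PRDM14 knockout, or when the fit held the compared groups alone, while 14 members were called without CBFA2T2 knockout replicate 3 and 22 without replicate 1 of the libraries labelled PRDM14 knockout. The DESeq2 Wald test called 31 and limma-voom 11.

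The largest difference among the 9 was that of Rps6-ps2, at 4.80, 5.80 and 7.68 CPM in CBFA2T2 knockout and 10.02, 13.9 and 18.1 CPM in the libraries labelled PRDM14 knockout. The groups did not overlap (-1.21 ± 0.24 log2, adjusted p = 0.0342 by edgeR). Rps6-ps1 was at 17.5, 15.5 and 19.1 CPM and at 25.6, 29.9 and 41.9 CPM (-0.91 ± 0.17 log2, adjusted p = 0.0319 by edgeR). The minus-strand copies Rps6-ps4, at 432, 405 and 430 CPM and at 418, 421 and 493 CPM, and Rps6-ps3 overlapped between the groups, with log2 differences of -0.07 ± 0.08 and -0.01 ± 0.08. Rps6 was at -0.02 ± 0.08 log2.

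Rpl17-ps8, an X-linked copy of a large-subunit gene, was at 2.71, 2.21 and 3.49 CPM in CBFA2T2 knockout and 5.24, 6.56 and 6.94 CPM in the libraries labelled PRDM14 knockout (-1.17 ± 0.25 log2, adjusted p = 0.047 by edgeR). Rpl27-ps3 was at 3.22, 3.93 and 3.96 CPM and at 7.75, 6.56 and 9.82 CPM (-1.12 ± 0.21 log2, adjusted p = 0.0318 by edgeR). Wild type was near the PRDM14-labelled level for Rpl27-ps3, at 6.20 to 8.11 CPM, and overlapped CBFA2T2 knockout for Rpl17-ps8, at 3.30 to 4.91 CPM. Rpl27 and Rpl17 were at -0.13 ± 0.16 and -1.18 ± 0.27 log2, neither called.

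Both X-linked copies of Rpl3 were lower in CBFA2T2 knockout as well. Rpl3-ps2 was at 31.5, 28.1 and 41.3 CPM and at 53.2, 54.4 and 64.6 CPM, without overlap (-0.78 ± 0.14 log2, adjusted p = 0.0276 by edgeR). Rpl3-ps1 was at -0.46 ± 0.10 log2 and missed the threshold (adjusted p = 0.0562 by edgeR). Rpl3, on the minus strand of chromosome 15, was at -0.10 ± 0.09 log2.

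Others that were called included Rpl23a-ps3 (-0.94 ± 0.18 log2), Rpl5-ps2 (-0.81 ± 0.17) and Rpl18-ps2 (-0.64 ± 0.13), with adjusted p from 0.0342 to 0.047 by edgeR. In each of them the highest CBFA2T2 knockout library was below the lowest library labelled PRDM14 knockout, for example 9.61, 9.01 and 10.9 CPM against 15.2, 16.9 and 24.6 CPM for Rpl23a-ps3.

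The split by strand was seen again outside the kept members, at a smaller size. The other processed pseudogenes can still hold copies of ribosomal protein genes, since they were not screened by name. Among the other processed pseudogenes, 33 of 954 tested on the plus strand rose and 172 fell in CBFA2T2 knockout against wild type. Their median log2 fold change was -0.29. On the minus strand 121 of 1099 rose and 122 fell, with a median of 0.04. Of all genes 18.9% were called higher and 19.6% lower in that comparison. The plus-strand shares were 3.46% and 18.03%, so the rises were far below the background and the falls slightly below it. Both minus-strand shares were below the background too. Between the knockouts the medians of these pseudogenes were -0.28 on the plus strand and 0.01 on the minus strand. The other pseudogenes named with -ps leave out names that begin with Rpl or Rps. Their medians on the plus and minus strand were -0.32 and -0.12 in CBFA2T2 knockout against wild type, and -0.25 and -0.03 between the knockouts. Protein-coding genes on the plus and minus strand had medians of 0.01 and 0.03 in CBFA2T2 knockout, and 3418 of 6849 and 3575 of 6852 were above 0 between the knockouts.

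The fold changes also differed by count class, and strand and count cannot be told apart here, since most members under 1000 counts were on the plus strand. The 46 members with at least 10000 counts had medians of 0.22, 0.24 and -0.02 log2 in CBFA2T2 knockout, under the PRDM14 label and between the knockouts, the 55 with at least 1000 but under 10000 counts 0.11, 0.33 and -0.14, and the 45 under 1000 counts -0.46, 0.38 and -0.79. Without replicate 3 of the libraries labelled PRDM14 knockout the median of the last class under that label was 0.17, and the sign of the first class between the knockouts changed with the library left out (-0.09 to 0.05). As a share of parent counts the members held 95.4%, 88.1% and 87.7% in wild-type replicates 1 to 3, 92.6% to 94.5% in CBFA2T2 knockout and 91.1% to 93.1% in the libraries labelled PRDM14 knockout, and the groups overlapped.

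Other genes of the ribosome and its assembly were set beside the pseudogenes. Of 78 cytosolic ribosomal protein genes tested, 16 rose and 1 fell in CBFA2T2 knockout, which is 20.5% and 1.28% against 18.9% and 19.6% of all genes. Under the PRDM14 label 26 rose and 1 fell, which is 33.3% and 1.28% against 14.6% and 15.3%. Their medians were 0.15 and 0.28 log2. Of 8 ribosomal protein paralogs, 4 fell in CBFA2T2 knockout and 2 under the PRDM14 label, among them Rpl7l1 at -0.66 ± 0.09 and -0.52 ± 0.09 log2 (adjusted p = 9.09e-05 and 0.000868 by edgeR), and none rose.

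Of 40 genes of ribosome assembly and ribosomal RNA synthesis, 34 fell in CBFA2T2 knockout and 25 under the PRDM14 label, and none rose, with medians of -0.49 and -0.36 log2. The shares that fell were 85.0% and 62.5%, against 19.6% and 15.3% of all genes. Polr1b, a core subunit of RNA polymerase I, went from 194, 189 and 198 CPM in wild type to 107, 95.9 and 108 CPM in CBFA2T2 knockout and 115, 97.8 and 110 CPM under the PRDM14 label, the groups not overlapping wild type (-0.91 ± 0.08 and -0.85 ± 0.08 log2, adjusted p = 2.91e-06 and 7.76e-06 by edgeR). Rrn3, which brings RNA polymerase I to its promoter, was at -0.77 ± 0.07 and -0.60 ± 0.07 log2, and Nolc1, a nucleolar phosphoprotein, at -0.92 ± 0.09 and -0.64 ± 0.09, all called.

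The other 148 pseudogenes named with -ps rose in 13 cases and fell in 31 in CBFA2T2 knockout, and rose in 11 and fell in 17 under the PRDM14 label. In CBFA2T2 knockout that is 8.78% and 20.9%, against 18.9% and 19.6% of all genes, so the falls were close to the background. Under the PRDM14 label it is 7.43% and 11.5%, against 14.6% and 15.3%. Fabp3-ps1 had the lowest adjusted p of these in both, at 24.4, 19.9 and 18.8 CPM in wild type, 108, 102 and 82.4 CPM in CBFA2T2 knockout and 68.9, 76.9 and 71.7 CPM under the PRDM14 label (2.21 ± 0.12 and 1.78 ± 0.12 log2, adjusted p = 7.3e-08 and 8.14e-07 by edgeR). No ribosomal protein pseudogene had a log2 fold change above 1.06 in either comparison. Cbfa2t2-ps1, a copy of the targeted gene, was at 14.2, 16.8 and 15.1 CPM in wild type and 7.06, 4.41 and 5.05 CPM in CBFA2T2 knockout (-1.47 ± 0.21 log2, adjusted p = 0.000114 by edgeR).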

How the data were processed

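The authors deposited raw counts of reads per Ensembl gene, which had not been scaled. Per the labels these are polyA dUTP libraries, 1 table each. The submitters' processing notes name Bowtie, without a version, and mm9, while the coordinates in the files are GRCm38. For the counting program, its strand setting and its handling of reads that match several genes, the labels name nothing. Members, gene lists and comparisons were chosen with earlier results of these data known, and the split by strand after the values were seen.

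Counts were fitted in R 4.3.3 with edgeR 4.0.16: filterByExpr left 16532 genes, TMM factors were 0.962 to 1.037, and a robust quasi-likelihood model covered the 3 groups over all 9 libraries. Tests were two-sided, with Benjamini-Hochberg adjustment over all genes, and a gene was called at an adjusted p under 0.05. SE is the absolute log2 fold change over the square root of F. Level values are CPM on TMM-scaled library sizes, and counting error is only a lower limit of their error. Alternatives used DESeq2 1.42.0 and limma-voom 3.58.1, other filters, fits of the compared groups alone, a block on replicate number, and each library left out in turn. The fits were tested on simulated data.

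Between replicates the chi-square over its degrees of freedom was 3.06 to 18.8, above sampling noise in each pair, and each library counted as 1 replicate. Strand, biotype and sequence came from GENCODE M21. Pseudogenes were aligned to parent transcripts in Python 3.11.15 with Biopython 1.88 (match 2, mismatch -3, gap opening -6, gap extension -2). Windows of 50 bases were matched exactly to annotated transcripts, both as they are and as the reverse complement. Level per kb divides CPM by the length of the member or of the parent's merged exons.

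Named genes were the 10 members with the highest mean CPM, up to 6 called members per comparison and direction by adjusted p, their parents and overlapping genes, the members nearest the count minimum, the targeted genes, and up to 3 called genes per list. Others were named after their values were seen: Rpl5-ps2, Rpl17-ps8, Rps12-ps9, Rpl36a-ps3, Rps15a-ps3, Rps23-ps2 and parents of these. Some members, counted in the totals, are not reported here by name.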

Additional observations from a re-analysis of the deposited data

Results flagged for a closer look

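Of the 9 pseudogenes called in CBFA2T2 knockout against the libraries labelled PRDM14 knockout, 8 are given here, and stood out because the effects of the knockouts differed by the test of that difference itself (edgeR, adjusted p under 0.05). The log2 differences were -1.21 for Rps6-ps2, -1.17 for Rpl17-ps8, -1.12 for Rpl27-ps3, -0.94 for Rpl23a-ps3, -0.91 for Rps6-ps1, -0.81 for Rpl5-ps2, -0.78 for Rpl3-ps2 and -0.64 for Rpl18-ps2. Each had 3 libraries per group that did not overlap. They are annotated on the plus strand, which holds 65 of the 145 members with a strand. Their levels in the libraries compared were 2.21 to 64.6 CPM. Feeder fibroblast markers, at 664 to 1534 CPM in CBFA2T2 knockout and 571 to 1327 CPM under the PRDM14 label, overlapped between these groups. The part of strand and of counting in these differences was not tested.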

How the results depend on the processing

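The medians of the members kept their sign with DESeq2 size factors, with count minima of 45 and 180 and with each library left out, at 0.06 to 0.15 log2 in CBFA2T2 knockout, 0.19 to 0.38 under the PRDM14 label and -0.17 to -0.04 between the knockouts in the last of these. Of the calls of named genes, 52 were kept under every alternative, 49 were lost under at least 1 and 0 reversed. Most were lost without wild-type replicate 3 (35) or replicate 3 of the libraries labelled PRDM14 knockout (25). With each library left out, members called were 17 to 40 in CBFA2T2 knockout, 3 to 54 under the PRDM14 label and 0 to 22 between the knockouts, and parents 9 to 16, 5 to 31 and 0 to 6. Between the knockouts, 141 genes were called; the DESeq2 Wald test called 602, no filter 328, the compared groups alone 24, and leave-one-out fits 24 to 597. There the Wald test called 31 members and 8 parents, no filter 20 and 5, limma-voom 11 and 1, and the compared groups alone 0 members. In CBFA2T2 knockout 25 parents were called with the compared groups alone.

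Whether replicate numbers pair libraries was not settled. Deviations of same-numbered libraries correlated at -0.023 to 0.367, and those of differently numbered libraries at -0.258 to 0.101. Between the knockouts the same-numbered values were 0.084, 0.367 and 0.146 for replicates 1 to 3. A batch shared by same-numbered libraries was not tested. With the replicate number as a block, 392 genes, 21 members and 9 parents were called between the knockouts. Members that overlap no other gene held 77.9%, 82.4% and 80.4% of the counts of their own parents. These values are for wild type, CBFA2T2 knockout and the PRDM14 label. All members held 90.4%, 93.7% and 92.2% of the counts of all 55 parents, so the denominators differ. In wild type the non-overlapping members summed to a mean of 6006 CPM, all members to 10376 and all 55 parents to 11476. The causes were not tested. Members under 1000 counts are the least precise, and with 3 libraries per group a p that misses the threshold does not show that levels were equal.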
